A study of Mus musculus with 22 samples.

Results

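The EGF receptor family, its ligands and its feedback inhibitor were followed through the sorted cells of the mouse colon crypt. The set was chosen by name and holds 9 of the 24421 genes in the count files, which are 4 receptors (Egfr, Erbb2, Erbb3 and Erbb4), 4 ligands (Areg, Ereg, Hbegf and Tgfa) and 1 inhibitor (Errfi1). RNA was sequenced from 22 libraries of live Epcam+ cells that lacked Cd31 and Cd45, taken from the colons of untreated wild type C57BL/6N male mice aged 5 to 7 weeks. Stem cells (Stem, 3 libraries) were sorted as Cd44highest Cd24low Ckit-, and absorptive progenitors (AbsPro, 3 libraries) as Cd44med/hi with the same Cd24 and Ckit gate. SecPDG (4 libraries; secretory progenitors, deep crypt secretory cells and possible goblet cells) were Cd44hi with medium Cd24 and Ckit. Tuft cells (Tuft, 5 libraries) were Ckit+ Cd24hi, enterocytes (Ent, 5 libraries) had low or no Cd44 and no Cd24, and enteroendocrine cells (EEC, 2 libraries) had low or no Cd44 and were Cd24+. By the study's methods, a Stem or AbsPro library came from a single mouse, while every library of SecPDG, Tuft, Ent and EEC was a pool of mice. Each library carries the name of its cell type and its number, as in Tuft 1.

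ErbB receptors are tyrosine kinases of the cell surface that signal as pairs. Egfr (ErbB1) binds amphiregulin (Areg), epiregulin (Ereg), heparin-binding EGF (Hbegf) and transforming growth factor alpha (Tgfa), which are made as membrane proteins and released by proteases such as Adam17. Erbb2 has no known ligand and is the favoured partner of the others, Erbb3 has a weak kinase and binds neuregulins, and Erbb4 binds neuregulins and some of the Egfr ligands. In the intestinal crypt EGF receptor signaling drives proliferation of stem and progenitor cells, and Errfi1 (Mig6) is an inhibitor that binds the kinase domain of active receptors and is itself induced by the signal.

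The members lie at separate places in the genome, apart from Ereg and Areg, which are neighbours on chromosome 5 with 45952 bp between them. In the GENCODE annotation of GRCm38, Egfr is at chr11:16752203-16918158 and Erbb2 at chr11:98412470-98437716, both on the plus strand, while Erbb3 is at chr10:128567523-128589652 and Erbb4 at chr1:68032186-69108059, both on the minus strand. Ereg (chr5:91074622-91093646), Areg (chr5:91139599-91148432), Tgfa (chr6:86195223-86275719) and Errfi1 (chr4:150853919-150868892) are on the plus strand. Reads were counted without regard to strand. Exons of Ereg share 141 bp with an antisense gene, those of Tgfa 118 bp with another transcript of the minus strand and those of Erbb2 9 bp with Mien1, and reads from such stretches cannot be told apart by strand.

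Promoters are shown for Areg and Errfi1, whose levels moved together over the libraries, and for Erbb2, the receptor called across cell types. The promoter of Hbegf, which was closer to Areg over the libraries than Errfi1 was, is not shown here. RefSeq's promoter table on GRCm38.p6 matched 6 members. The 250 bases before each start are printed 5′ to 3′ on the plus strand, for Areg at chr5:91139349-91139598, for the second of 2 listed starts of Errfi1 at chr4:150854820-150855069 and for Erbb2 at chr11:98412234-98412483. Capitals mark the letters of a cyclic AMP response element (CRE, TGACGTCA), a GC box (GGGCGG) or a TATA box (TATAAA), searched on both strands together with an AP-1 site (TGANTCA), and motifs that overlap were each counted.
Areg: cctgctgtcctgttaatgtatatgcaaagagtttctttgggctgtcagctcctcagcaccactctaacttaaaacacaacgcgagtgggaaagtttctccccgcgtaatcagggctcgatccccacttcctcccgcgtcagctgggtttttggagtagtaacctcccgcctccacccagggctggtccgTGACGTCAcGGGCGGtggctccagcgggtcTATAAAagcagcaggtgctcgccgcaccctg
Errfi1: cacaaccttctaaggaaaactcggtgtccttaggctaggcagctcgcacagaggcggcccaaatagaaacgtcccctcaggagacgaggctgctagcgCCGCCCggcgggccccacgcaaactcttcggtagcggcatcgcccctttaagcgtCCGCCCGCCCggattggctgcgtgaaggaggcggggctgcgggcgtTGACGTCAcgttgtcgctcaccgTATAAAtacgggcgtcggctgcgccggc
Erbb2: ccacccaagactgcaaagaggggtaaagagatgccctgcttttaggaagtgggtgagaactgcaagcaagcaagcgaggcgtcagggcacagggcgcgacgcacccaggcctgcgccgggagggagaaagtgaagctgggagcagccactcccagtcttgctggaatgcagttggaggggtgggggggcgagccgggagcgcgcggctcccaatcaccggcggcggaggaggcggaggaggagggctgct
Areg held a CRE beginning 61 bases before the start and a TATA box beginning 31 bases before it. The printed start of Errfi1 held the same pair, at 51 and 28 bases. A CRE was present in 1.55% of the 32851 promoters of the table, a TATA box in 12.4%, a GC box in 32.7% and an AP-1 site in 6.75%. Both a CRE and a TATA box stood in 39 of them (0.119%), a pair that was looked up after it was seen in these promoters. The printed Erbb2 stretch, the other start of Errfi1 and the promoter of Erbb4 held none of the 4 motifs. Tgfa held GC boxes alone, 2 of them, and Egfr 1. A match of letters is a description of the sequence and not a bound site.

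Reads counted on genes ranged from 15314543 to 22462518 in the Stem, AbsPro and SecPDG libraries, from 9930648 to 20892532 in Tuft, from 5950619 to 12966128 in Ent and were 4122122 and 13132315 in EEC 1 and EEC 2. Levels are given as normalized counts, that is counts divided by the library size after TMM scaling and multiplied by the mean of these sizes, and levels of different genes are compared only per kilobase (kb) of exon. Reads outside genes took 40.9% to 49.4% of aligned reads in Stem, AbsPro and SecPDG and 43.4% to 89.7% in Tuft, Ent and EEC. To set a background, reads on 1506 genes of families taken to be silent in colon epithelium were scaled to each member's exon length. The families were olfactory, vomeronasal and trace amine receptors and hair keratin proteins, and their silence in each sorted cell type was not tested. In means per cell type these genes had a summed CPM of 72.7, 81.6 and 86.6 in Stem, AbsPro and SecPDG, 949 in Tuft, 2586 in Ent and 3850 in EEC. The labelled cell types were the highest in their own markers, except that the summed enterocyte markers (such as Car1 and Slc26a3) were higher in AbsPro (mean 91942) and EEC (mean 86094) than in Ent (mean 68049). EEC 2 held 148848 normalized counts of these enterocyte markers and EEC 1 held 23341. Goblet cell markers (such as Muc2) came to a mean of 1440250 in SecPDG, 952703 in Tuft and 402002 in Ent, and immune markers to 40.4 to 281 in Stem, AbsPro and SecPDG and 489 to 3504 in Tuft, Ent and EEC. Count files of SecPDG and Tuft were named in a different form from the rest, so a difference between these 2 sets of libraries that came with their handling and a difference of cell type cannot be told apart. In such bulk samples, fewer cells of a type and less RNA per cell cannot be told apart either.

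Across the 6 cell types, 4 of the 9 members were called, namely Erbb2, Areg, Hbegf and Errfi1, where 33.6% of the 22781 genes tested were called. A call required a p-value below 0.01 in edgeR's quasi-likelihood test after Benjamini-Hochberg adjustment, and 50 or more normalized counts in the mean of all libraries. Ereg (edgeR adjusted p = 0.000666) missed only the minimum mean, at 49.9 normalized counts, as did Erbb4 (edgeR adjusted p = 5.36e-06) at 46.5. Egfr (edgeR adjusted p = 0.0480), Erbb3 (edgeR adjusted p = 0.117) and Tgfa (edgeR adjusted p = 0.252) did not pass. Over all libraries the level per kb was highest for Erbb3 (806) and Erbb2 (534). Errfi1 followed at 183, Areg at 107, Egfr at 92.6, Tgfa at 79.2 and Hbegf at 78.7, with Ereg at 12.1 and Erbb4 at 3.84.

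**Figure D1:**
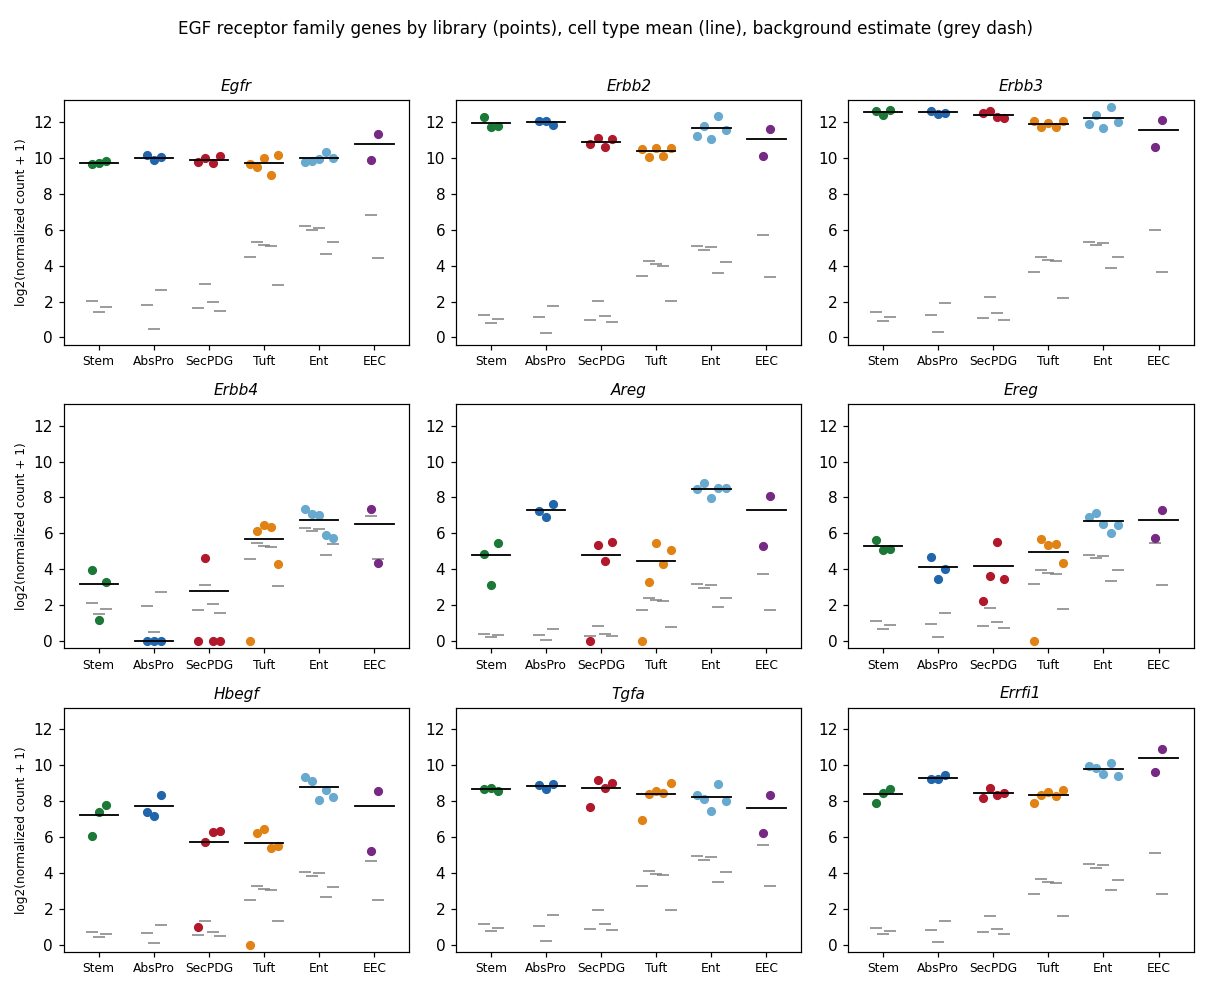
Each panel plots log2(normalized count + 1) of a member in every library (points) by cell type, with the cell type mean (black line) and the estimated background of each library (grey dash). Erbb2 is lowest in Tuft, Areg is highest in Ent, and several points of Erbb4 lie at 0 or near the background of their own libraries.

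Erbb3, the receptor that pairs with Erbb2 to pass on neuregulin signals, was the most abundant receptor per kb in each of the 22 libraries. In Stem it was at 6158, 5381 and 6396 normalized counts, in AbsPro at 6222, 5684 and 5910 and in SecPDG at 5799, 6341, 4888 and 4832. Tuft libraries were at 4228, 3324, 3969, 3399 and 4306, those of Ent at 3758, 5331, 3311, 7427 and 4085, and those of EEC at 1535 and 4372. Every Tuft library was below every Stem library, while the Ent libraries ranged from 3311 to 7427. No contrast of Erbb3 was called in the fit of all libraries. The nearest was EEC versus Stem, with a log2 fold change of -1.0 (SE 0.43, edgeR adjusted p = 0.0495), and Tuft versus Stem gave -0.64 (SE 0.33, edgeR adjusted p = 0.118). Without EEC 2, Erbb3 was called lower in EEC than in Stem (-1.96, edgeR adjusted p = 0.000889), as was Erbb2 (-1.83, edgeR adjusted p = 0.00166). Ent versus Tuft was called for Erbb3 with DESeq2's Wald test, size factors and library totals, at 0.63 to 0.69. From the highest mean to the lowest the order was Stem, AbsPro, SecPDG, Ent, Tuft and EEC, and neighbours overlapped at every step.

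Erbb2, the receptor without a ligand of its own, was lower in Tuft than in Stem and than in Ent. It was at 5004, 3433 and 3484 normalized counts in Stem and at 4277, 4316 and 3688 in AbsPro. In SecPDG it was at 1747, 2244, 1531 and 2084, in Tuft at 1456, 1075, 1474, 1088 and 1507, in Ent at 2394, 3551, 2164, 5151 and 3038, and in EEC at 1119 and 3087. All 9 libraries of SecPDG and Tuft lay below all 6 of Stem and AbsPro, and the highest Tuft library lay below the lowest of SecPDG. Tuft was 3.00-fold below Stem (log2 fold change -1.59, SE 0.31, edgeR adjusted p = 0.000121), lower in 5 of 5 libraries. Erbb2 was thus the only member called lower in any of the 9 contrasts of that fit, where 4.23% of genes tested were called lower in Tuft than in Stem and 7.83% higher. Ent was 2.47-fold above Tuft (log2 fold change 1.3, SE 0.28, edgeR adjusted p = 0.000541), higher in 5 of 5 libraries. SecPDG was at -1.07 relative to Stem (SE 0.33, edgeR adjusted p = 0.0296) and Tuft at -0.52 relative to SecPDG (SE 0.30, edgeR adjusted p = 0.21), both without a call. In SecPDG versus Stem no member was called, where 3.38% of genes were called higher and 1.60% lower, although with DESeq2's Wald test, with 2 other scalings or with these 2 cell types fitted alone Erbb2 was called there. Unadjusted p-values under 0.05 numbered 2 of 9 members in that contrast. In Tuft versus SecPDG no member was called by edgeR or DESeq2, 1 of 9 had an unadjusted p under 0.05, and 3.01% of genes were called higher and 0.347% lower.

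The ratio of Erbb2 to Erbb3 within a library does not depend on how libraries are scaled. Per kb it was 0.798 ± 0.163 (SD, n = 3) in Stem, 0.83 ± 0.081 (n = 3) in AbsPro, 0.815 ± 0.050 (n = 5) in Ent and 0.861 ± 0.020 (n = 2) in EEC. In SecPDG it was 0.420 ± 0.071 (n = 4) and in Tuft 0.410 ± 0.025 (n = 5). The highest library of these latter cell types was SecPDG 4 at 0.518, and the lowest of the other 13 libraries was Stem 3 at 0.654. Erbb2 thus took 25.0% to 31.5% of the summed receptor level in SecPDG and Tuft and 37.8% to 47.6% in the other cell types. This division follows the form of the file names as well as the cell types, and these cannot be told apart.

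**Figure D2:**
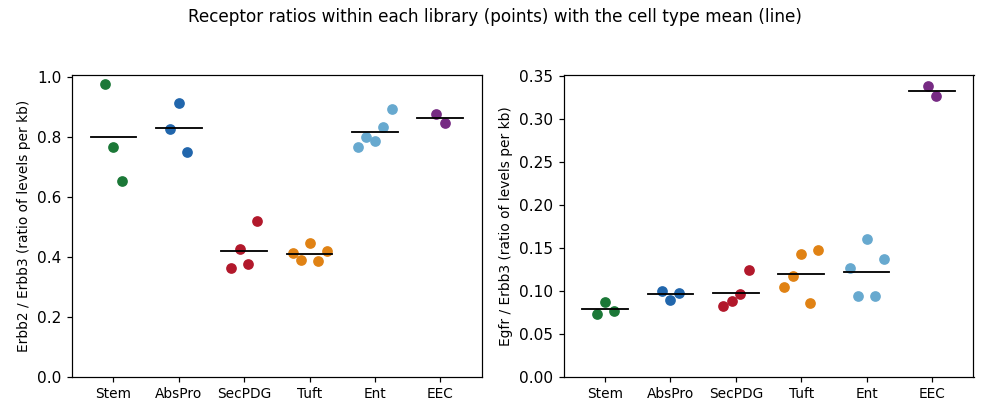
The level per kb of Erbb2 (left) and of Egfr (right) divided by that of Erbb3 is plotted for each library (points) by cell type, with the cell type mean (line) and axes from 0. The 9 libraries of SecPDG and Tuft lie at or below 0.518 on the left, and the EEC libraries lie at 0.327 and 0.338 on the right.

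Egfr, the receptor of the 4 ligands, was present in all cell types at similar levels, with its highest value in EEC 2. It was at 822, 849 and 894 normalized counts in Stem, at 1127, 929 and 1051 in AbsPro and at 868, 1015, 856 and 1095 in SecPDG. The Tuft libraries had 806, 709, 1033, 530 and 1155, those of Ent 869, 917, 963, 1269 and 1016, and those of EEC 945 and 2605. Both EEC libraries lay above all Stem libraries, EEC 1 by little. The EEC libraries were 2.11-fold above Stem in the fit (log2 fold change 1.08, SE 0.36, edgeR adjusted p = 0.0120), which missed the threshold. Egfr was called there with DESeq2's Wald test, with size factors, library totals or thinned counts, with background taken off, with libraries of 1 form of file name alone, and without EEC 1 or Ent 4. Without EEC 2 the change was 0.14 (edgeR adjusted p = 0.834). Relative to the other receptors the difference was wider. The ratio of Egfr to Erbb3 per kb was 0.338 in EEC 1 and 0.327 in EEC 2, while the highest of the other 20 libraries was Ent 3 at 0.160 and the Stem mean was 0.0789 ± 0.0069 (SD, n = 3). Egfr took 14.9% and 15.0% of the summed receptor level in the EEC libraries and 3.58% to 9.39% in the others. Ent versus Stem gave a log2 fold change of 0.24 (SE 0.30, edgeR adjusted p = 0.492), and 0.79 with DESeq2's size factors, where Egfr was called. The order of means was EEC, AbsPro, Ent, SecPDG, Stem and Tuft, and neighbours overlapped at every step.

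Erbb4, a neuregulin receptor, was low, and most of its reads in Tuft, Ent and EEC were within the background estimate. It was at 0 counts in all 3 AbsPro libraries, which allows up to 0.808 normalized counts (3 counts over the group), and in SecPDG 1, SecPDG 3, SecPDG 4 and Tuft 1. The 3 Stem libraries had 19, 2 and 13 reads and SecPDG 2 had 19. Normalized counts reached 87.2 in Tuft, 162 in Ent and 165 in EEC, where the estimated background made up 58.3%, 54.4% and 79.7% of the mean. Expression of Erbb4 was therefore not detectable above the background estimate in EEC 2 or in AbsPro at this depth. No fold change is given for it.

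Of the ligands, Areg differed most. Amphiregulin is a low-affinity Egfr ligand known from epithelial repair. It was at 28.3, 7.68 and 43.1 normalized counts in Stem, at 150, 120 and 194 in AbsPro and at 0, 39.8, 21.1 and 45.0 in SecPDG. Tuft libraries had 0, 8.83, 43.0, 18.4 and 32.6, those of Ent 357, 452, 253, 363 and 371, and those of EEC 38.0 and 269. Every Ent library was above every AbsPro library, and every AbsPro library was above every library of Stem, SecPDG and Tuft. EEC 1 lay among the low libraries and EEC 2 among those of Ent.

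Ent was 13.7-fold above Stem in Areg (log2 fold change 3.78, SE 0.53, edgeR adjusted p = 1.07e-07) and 16.7-fold above Tuft (4.06, SE 0.51, edgeR adjusted p = 6.36e-09), higher in 5 of 5 libraries in each. AbsPro was 6.01-fold above SecPDG (2.59, SE 0.61, edgeR adjusted p = 0.00293), higher in 3 of 3 libraries. Areg was the single member called there, where 1.73% of genes were called higher in AbsPro and 2.00% lower. The call was lost without AbsPro 3, SecPDG 1, SecPDG 2 or SecPDG 3, with adjusted p-values up to 0.0217 (edgeR), with DESeq2's Wald test (adjusted p = 0.0270) and with the edgeR test of earlier versions (adjusted p = 0.134), and with thinned counts Areg missed the minimum mean alone. AbsPro versus Stem gave a change of the same size (2.55, SE 0.61, edgeR adjusted p = 0.0139) that missed the threshold, in a contrast with no member called, 2 of 9 members at an unadjusted p under 0.05, and only 0.496% of genes called higher and 0.0922% lower. DESeq2's Wald test called none there either, while edgeR with DESeq2's size factors called Areg. Ent was a further 2.34-fold above AbsPro (1.23, SE 0.40, edgeR adjusted p = 0.00977), in a contrast with 8.21% of genes called higher and 7.98% lower. This last call was lost without any 1 of the AbsPro, Ent or Stem libraries, SecPDG 3, SecPDG 4, Tuft 2, Tuft 3 or Tuft 4, which are 16 of the 22, with adjusted p-values between 0.01001 and 0.0641 (edgeR). It was also lost with DESeq2's Wald test (adjusted p = 0.0525), a replicate block (adjusted p = 0.0233), thinned counts (adjusted p = 0.0140) and the earlier edgeR test (adjusted p = 0.2555). The libraries of AbsPro and Ent share 1 form of file name.

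EEC was 6.48-fold above Stem in Areg (2.70, SE 0.72, edgeR adjusted p = 0.00181), and this rested on EEC 2. Without EEC 2 the log2 fold change was 0.54 (edgeR adjusted p = 0.789), and without Stem 2 it was 2.12 (edgeR adjusted p = 0.0170). EEC 2 was also the EEC library with the high enterocyte markers, and the part of those cells in the result was not tested.

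Hbegf, a ligand that stays on the membrane until it is shed, followed Areg. It was at 64.3, 165 and 216 normalized counts in Stem, at 167, 142 and 317 in AbsPro and at 0.945, 51.0, 76.7 and 78.3 in SecPDG. In Tuft it was at 0, 73.2, 87.2, 41.4 and 43.5, in Ent at 659, 556, 270, 392 and 295, and in EEC at 36.2 and 379. The Ent libraries lay above all Stem libraries and the AbsPro libraries above all of SecPDG, while AbsPro overlapped both Stem and Ent. Ent was 2.87-fold above Stem (1.52, SE 0.43, edgeR adjusted p = 0.00276) and 8.94-fold above Tuft (3.16, SE 0.48, edgeR adjusted p = 9.00e-07), higher in 5 of 5 libraries in each. The first call was lost without Stem 1 (1.18, edgeR adjusted p = 0.0304), Stem 2 (1.47, edgeR adjusted p = 0.0181) or Ent 1 (1.16, edgeR adjusted p = 0.0244) and with DESeq2's Wald test (adjusted p = 0.0215). Tuft versus Stem gave -1.64 (SE 0.57, edgeR adjusted p = 0.0251) and AbsPro versus SecPDG 1.97 (SE 0.57, edgeR adjusted p = 0.0224), neither of them called. EEC versus Stem gave 0.60 (SE 0.59, edgeR adjusted p = 0.415), with 1 library above and 1 below the Stem mean.

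Ereg, a further Egfr ligand and a neighbour of Areg, was low throughout and had another order. It was at 48.2, 32.6 and 33.7 normalized counts in Stem, at 24.7, 9.76 and 15.0 in AbsPro and at 3.78, 11.2, 44.6 and 9.79 in SecPDG. Tuft libraries had 0, 50.5, 40.4, 41.4 and 19.2, those of Ent 117, 141, 91.3, 63.9 and 88.6, and those of EEC 52.4 and 159. AbsPro, where Areg was raised over SecPDG, had a mean Ereg of 16.5 beside 17.4 in SecPDG (log2 fold change -0.13, SE 0.99, not called). The medians had the other order, at 15.0 in AbsPro and 10.5 in SecPDG. All 3 AbsPro libraries lay below all 3 of Stem. Ent versus AbsPro gave a log2 fold change of 2.55 (SE 0.70, edgeR adjusted p = 0.00295), which missed only the minimum mean. With the background counts taken off, Ent versus Stem gave 1.53 in place of 1.40 (SE 0.56, edgeR adjusted p = 0.0282), and the estimated background made up 19.8% of the mean in Ent, 33.4% in Tuft and 23.7% in EEC.

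Tgfa, the ligand with the most even levels, was not called in any contrast. It was at 401, 423 and 379 normalized counts in Stem, at 480, 401 and 489 in AbsPro and at 200, 581, 419 and 518 in SecPDG. In Tuft it was at 122, 336, 370, 345 and 510, in Ent at 316, 275, 170, 501 and 252, and in EEC at 74.1 and 322. The cell types overlapped, apart from Stem and AbsPro against EEC. EEC versus Stem gave -0.91 (SE 0.51, edgeR adjusted p = 0.131), and Ent versus Stem -0.40 (SE 0.36, edgeR adjusted p = 0.325), which was 0.11 with DESeq2's size factors.

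Among the 4 ligands of the set, the make-up of the RNA differed between cell types. In the mean shares Tgfa led in Stem, SecPDG and Tuft, and Areg led in AbsPro, Ent and EEC. In Stem 3, Hbegf was above Tgfa, at a ratio per kb of 1.09. Tgfa took 49.96% ± 10.5 (SD, n = 3) of the summed level per kb of the 4 ligands in Stem, 72.0% ± 17.2 (n = 4) in SecPDG and 68.6% ± 18.9 (n = 5) in Tuft, against 11.7% ± 4.0 (n = 5) in Ent. Areg took 52.5% ± 6.0 (n = 5) in Ent, 39.8% ± 0.5 (n = 3) in AbsPro and 43.3% ± 2.7 (n = 2) in EEC. The share of Areg was alike in EEC 1 and EEC 2, at 41.4% or more in both, although their Areg levels were 38.0 and 269. Within a library the ratio of Areg to Tgfa per kb was at most 0.432 in Stem, SecPDG and Tuft, and at least 1.11 in AbsPro, Ent and EEC. Egf, which is outside the set, had a mean level per kb of 144 in SecPDG and 110 in Tuft, above Tgfa at 94.9 and 74.4.

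**Figure D3:**
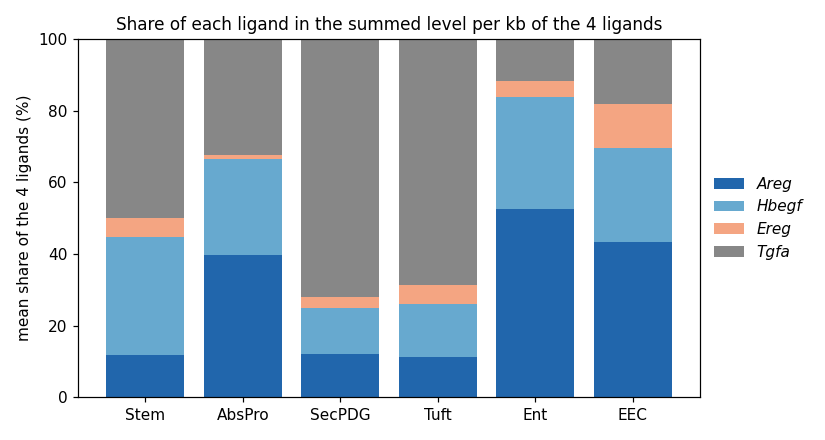
Stacked bars give the mean share (%) of Areg, Hbegf, Ereg and Tgfa in the summed level per kb of the 4 ligands, by cell type. Tgfa makes up the most in SecPDG (72.0%) and Tuft (68.6%), and Areg the most in Ent (52.5%).

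Errfi1, the inhibitor, was higher in Ent and EEC than in Stem. It was at 233, 353 and 408 normalized counts in Stem, at 598, 601 and 692 in AbsPro and at 286, 428, 317 and 355 in SecPDG. In Tuft it was at 240, 323, 368, 312 and 384, in Ent at 1004, 921, 723, 1098 and 670, and in EEC at 781 and 1915. All libraries of AbsPro, Ent and EEC lay above all libraries of Stem, SecPDG and Tuft. Ent was 2.65-fold above Stem (1.41, SE 0.31, edgeR adjusted p = 0.000260) and 2.70-fold above Tuft (1.43, SE 0.28, edgeR adjusted p = 8.98e-05), higher in 5 of 5 libraries in each. EEC was 4.12-fold above Stem (2.04, SE 0.37, edgeR adjusted p = 1.13e-05), higher in 2 of 2 libraries, and at 1.23 (edgeR adjusted p = 0.0163) without EEC 2. AbsPro versus Stem gave 0.92 (SE 0.34, edgeR adjusted p = 0.240) and AbsPro versus SecPDG 0.87 (SE 0.32, edgeR adjusted p = 0.112), without a call although the libraries did not overlap. In the means Errfi1 was above Egfr per kb, at a ratio of 1.3 ± 0.31 (SD, n = 3) in Stem, 1.22 ± 0.15 (n = 4) in SecPDG and 1.38 ± 0.40 (n = 5) in Tuft, with Stem 1 at 0.961. The ratio was 2.07 ± 0.24 (n = 3) in AbsPro, 3.00 ± 0.67 (n = 5) in Ent and 2.64 ± 0.22 (n = 2) in EEC.

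Counted by contrast, the calls of members were thus higher in 3 of 9 in Ent versus Stem (Areg, Hbegf and Errfi1), where 10.7% of genes were called higher and 11.5% lower. They were higher in 2 of 9 in EEC versus Stem (Areg and Errfi1), against 10.8% higher and 9.14% lower. In Ent versus Tuft 4 of 9 were called higher (Erbb2, Areg, Hbegf and Errfi1), against 2.65% higher and 5.79% lower. The median log2 fold change of the 9 members was 1.40 in Ent versus Stem beside 1.17 over all genes tested. It was 1.08 beside 0.68 in EEC versus Stem and 1.3 beside 0.32 in Ent versus Tuft. These medians count genes under the minimum mean, Erbb4 and Ereg among the members, and the 1.40 is the value of Ereg. Of the other members in Ent versus Stem, Areg, Hbegf and Errfi1 were at 3.78, 1.52 and 1.41 and Egfr at 0.24. Erbb2, Erbb3 and Tgfa were at -0.28, -0.32 and -0.40. Contrasts with Stem share the Stem libraries, and the Ent contrasts those of Ent. Scaling moved the reference in these comparisons, because the median change (log2) of the genes at or over the minimum mean was -0.30 in Ent versus Stem with TMM and 0.35 with DESeq2's size factors, and -0.30 and 0.48 in EEC versus Stem. Of all genes called in Ent versus Stem 48.3% were higher with TMM and 75.6% with size factors, in EEC versus Stem 54.2% and 77.3%, in Ent versus AbsPro 50.7% and 83.5%, and in Ent versus Tuft 31.4% and 51.0%. Library totals gave 44.1% in place of 67.9% in SecPDG versus Stem and 59.6% in place of 46.3% in AbsPro versus SecPDG. The calls of Areg, Hbegf and Errfi1 in Ent held with both. The signs of Erbb2 and Erbb3 in Ent versus Stem did not, at -0.28 and -0.32 with TMM and at 0.22 and 0.20 with size factors.

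**Figure D4:**
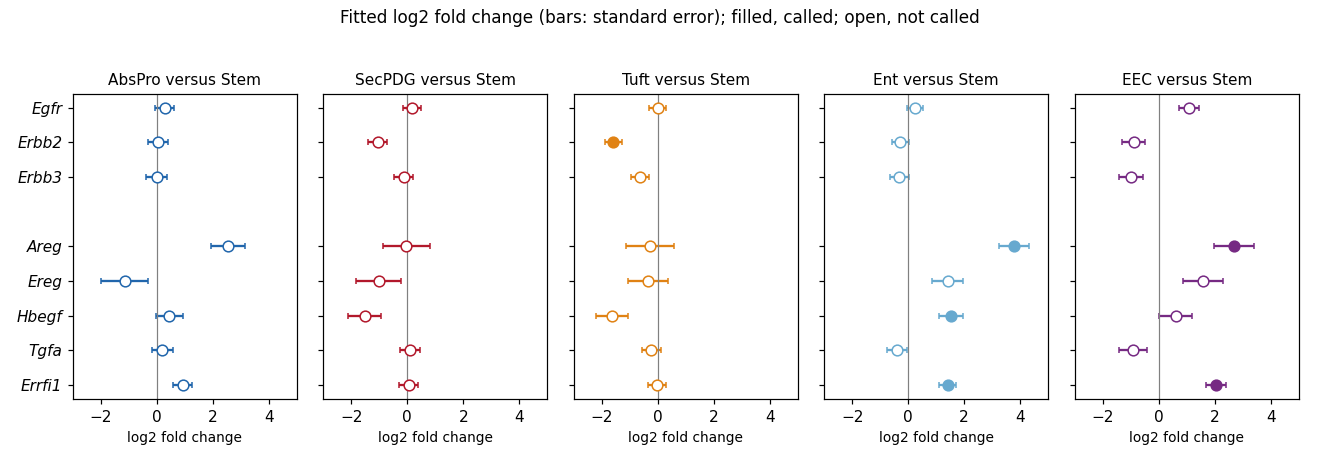
Fitted log2 fold changes (points) with standard errors (bars) of 8 members are plotted for each cell type versus Stem, filled where called and open where not, and Erbb4 is left out because its libraries were at or near background. Areg reaches 3.78 in Ent, and Erbb2 at -1.59 in Tuft is the filled point below 0.

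Sums of several marker lists differed between the cell types, while those of stress genes overlapped between Stem, AbsPro and Ent. Summed over 10 immediate early and stress genes (such as Fos and Hspa1a), libraries ranged from 6869 to 11109 normalized counts in Stem, while AbsPro spanned 6950 to 10854, SecPDG 5637 to 8972, Tuft 4138 to 6890 and Ent 7407 to 12264, and were at 7564 and 22213 in EEC 1 and EEC 2. Endothelial markers ranged from 5.69 to 73.4 in Stem, AbsPro and SecPDG and 87.8 to 1396 in the others, and stromal markers from 50.1 to 1481 and 195 to 3516. Mast cells and innate lymphoid cells make amphiregulin, and 8 genes used as their markers were summed. The sums ranged from 18.0 to 136 in Stem, AbsPro and SecPDG, 120 to 429 in Tuft and 319 to 803 in Ent. They were 1882 and 1374 in EEC 1 and EEC 2. Estimated background made up 25.9% of the mean sum in Tuft, 27.6% in Ent and 12.5% in EEC. Of the 8 genes, 1 was called higher than in Stem in Ent and 1 in EEC, where 10.7% and 10.8% of all genes were. EEC 1 had the higher sum of mast and innate lymphoid markers and the lower Areg. It also had fewer reads on genes, 4122122 against 13132315 in EEC 2. The part of endothelial, stromal, mast and innate lymphoid cells and of dissociation stress in the levels of Areg, Hbegf and Errfi1 was not tested.

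Over the 22 libraries, Areg and Hbegf had the closest pattern among the members, with a Pearson r of 0.903 on log2 normalized counts, and Areg and Errfi1 had 0.800. Erbb3 and Tgfa had 0.713 and Erbb2 and Erbb3 0.708, while Areg and Erbb3 had 0.068. These are descriptions over libraries that share cell type, depth and background. Among the 13188 genes at or over the minimum mean, Areg was nearest to Hbegf, Egln3 (an oxygen-sensing hydroxylase, 0.897) and Mall (a membrane raft protein, 0.897). Hbegf was nearest to Mall (0.919), Egln3 (0.916) and Kremen2 (a Wnt co-receptor inhibitor, 0.915), and Errfi1 to Krt20 (a keratin of mature enterocytes, 0.905), Slc8a1 (a sodium calcium exchanger, 0.890) and Ssfa2 (0.889). Among the receptors, Egfr was nearest to Itpr3 (an inositol trisphosphate receptor, 0.873), Itpk1 (an inositol phosphate kinase, 0.828) and Aim1 (0.814). Erbb2 was nearest to Add3 (a membrane skeleton protein, 0.959), Sept5 (a septin, 0.934) and Krt19 (an epithelial keratin, 0.926), and Erbb3 to Rps6ka3 (a kinase downstream of ERK, 0.939), Ccni (a cyclin, 0.937) and Diap1 (0.935). Tgfa was nearest to Mapkap1 (a subunit of mTORC2, 0.933), Mira (0.929) and Coro1b (an actin regulator, 0.908).

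**Figure D5:**
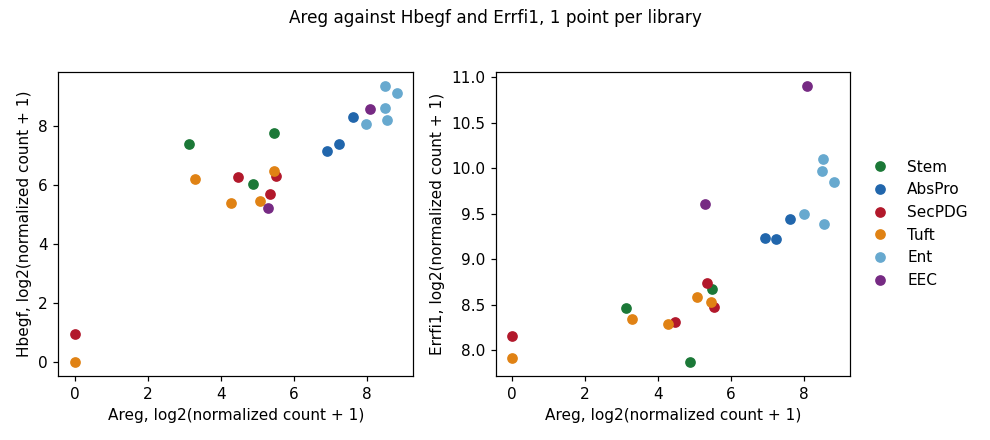
Areg (x axis) is plotted against Hbegf (left) and Errfi1 (right), each as log2(normalized count + 1), with 1 point per library coloured by cell type. Points of Ent lie at the upper right and those of Tuft and SecPDG at the lower left, with a Pearson r of 0.903 on the left and 0.800 on the right.

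Other genes of the pathway were counted from lists. Of 7 further ligands of the family (Egf, Btc, Epgn and Nrg1 to Nrg4), Egf alone was called versus Stem. It was called higher in SecPDG, Tuft and Ent, where 3.38%, 7.83% and 10.7% of all genes were. With 7 genes, a count of 1 is near the shares in Tuft and Ent. The order of Egf was unlike that of Areg. Egf was at 61.1 ± 65.1 normalized counts (SD, n = 3) in Stem and 117 ± 92 (n = 3) in AbsPro, against 691 ± 254 (n = 4) in SecPDG and 527 ± 146 (n = 5) in Tuft. It was higher than in Stem by 3.55 on the log2 scale in SecPDG (SE 0.49, edgeR adjusted p = 2.29e-07), by 3.19 in Tuft (SE 0.49, edgeR adjusted p = 1.32e-06) and by 1.86 in Ent (SE 0.54, edgeR adjusted p = 0.00311). The study itself showed Egf and several of these genes from the same libraries, so the list is not independent evidence of its direction. The neuregulins Nrg1 to Nrg4 had means of at most 92.6 in any cell type, and estimated background made up 43.0% to 63.8% of Nrg1 in Tuft, Ent and EEC. Nrg4 was at a mean of 91.4 in Tuft and 91.6 in EEC, with a background of 5.92% and 14.6%. Btc (betacellulin) had means between 86.4 and 176 in the 6 cell types.

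Of 5 genes of ligand shedding and trafficking, Rhbdl2 (a rhomboid protease) was called higher in Ent than in Stem, by 2.04 on the log2 scale (SE 0.35, edgeR adjusted p = 5.14e-06). Rhbdf1 (iRhom1, a partner of Adam17) was called lower, by -1.08 in Ent (SE 0.31, edgeR adjusted p = 0.00340) and by -1.48 in EEC (SE 0.45, edgeR adjusted p = 0.00554). None of the 5 was called in AbsPro, SecPDG or Tuft versus Stem. Of all genes 0.496%, 3.38% and 7.83% were called higher there and 0.0922%, 1.6% and 4.23% lower. The shares called higher and lower were 10.7% and 11.5% in Ent and 10.8% and 9.14% in EEC. With 5 genes, the counts are near these shares. Adam17, the main sheddase of these ligands, had means between 481 and 845 in the 6 cell types and no call in any contrast.

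Of 16 other negative regulators, 4 were called higher and 5 lower in EEC versus Stem, 1 and 2 in Ent, 2 and 1 in Tuft, 1 and 0 in SecPDG and none in AbsPro. Over all genes 10.8% were called higher and 9.14% lower in EEC, 10.7% and 11.5% in Ent, 7.83% and 4.23% in Tuft and 3.38% and 1.60% in SecPDG, so that the counts in Ent, Tuft and SecPDG were within 1 gene of those shares. Lrig1, a membrane protein that promotes receptor turnover and marks stem cells, was at 6224 ± 800 (SD, n = 3) in Stem and 1144 ± 661 (n = 5) in Ent, a log2 fold change of -2.44 (SE 0.33, edgeR adjusted p = 6.05e-08), and -3.16 in EEC (SE 0.49, edgeR adjusted p = 7.77e-07). Dusp4, a MAPK phosphatase, was higher in EEC by 3.70 (SE 0.42, edgeR adjusted p = 3.51e-10). Dusp5, an ERK phosphatase, was higher in SecPDG by 3.63 (SE 0.69, edgeR adjusted p = 0.000129) and in Ent by 3.32 (SE 0.71, edgeR adjusted p = 0.000171). Dusp5 was also called higher in Tuft and EEC. Ptpn6 (SHP-1), a tyrosine phosphatase also of blood cells, was higher in Tuft by 3.16 (SE 0.35, edgeR adjusted p = 3.73e-10). It was also called higher in EEC, while its mean was 445 in Ent and 465 in Stem. Summed immune markers had means of 2091 in Tuft, 1530 in EEC, 789 in Ent and 219 in Stem. The part of immune cells in the level of Ptpn6 was not tested. Spred1, an inhibitor of Raf activation, was lower in Tuft at -1.08 (SE 0.30, edgeR adjusted p = 0.00507) and was also called lower in Ent and EEC.

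Of 21 signal transducers, none was called higher in any contrast with Stem. Called lower were 1 in Tuft, 4 in Ent and 3 in EEC, where 4.23%, 11.5% and 9.14% of all genes were. The count in Tuft is near that share. Pik3r1, a regulatory subunit of PI3 kinase, had the largest decrease in each, at -1.03 in Tuft (SE 0.31, edgeR adjusted p = 0.00950), -1.47 in Ent (SE 0.31, edgeR adjusted p = 0.000138) and -1.63 in EEC (SE 0.42, edgeR adjusted p = 0.00139). Of 10 ERK-responsive genes, 2 were called higher and 5 lower in Ent and in EEC, 1 and 3 in Tuft, and 1 and 0 in SecPDG. With 10 genes, the counts of 1 are near the shares over all genes, 7.83% called higher in Tuft and 3.38% in SecPDG. In Ent 10.7% and in EEC 10.8% of all genes were called higher. Myc, a driver of proliferation, was lower by -1.88 in Tuft (SE 0.32, edgeR adjusted p = 7.79e-06), -3.48 in Ent (SE 0.35, edgeR adjusted p = 2.76e-11) and -3.90 in EEC (SE 0.54, edgeR adjusted p = 5.56e-08). The immediate early gene Fos was higher in Ent by 1.78 (SE 0.41, edgeR adjusted p = 0.000413) and Egr1 in EEC by 2.70 (SE 0.40, edgeR adjusted p = 3.74e-07). Each of these genes was called higher in Ent and in EEC. Etv5, an ETS factor downstream of FGF and ERK, was higher in SecPDG by 3.38 (SE 0.34, edgeR adjusted p = 2.20e-11) and in Tuft by 2.78 (SE 0.33, edgeR adjusted p = 1.70e-09). In Ent, Etv5 was called lower than in Stem. The ERK-responsive genes thus did not share 1 direction, and the immediate early markers given above include Fos and Egr1.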

How the data were processed

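RNA of sorted colon crypt cells was sequenced as paired ends from low-input libraries (Clontech Low Input Pico kit). The authors trimmed adapters, aligned reads to mm10 with STAR 2.5.2a, processed them with SAMtools 1.3 and counted them on genes without regard to strand with HTSeq 0.6.1p1, and deposited the raw gene counts of each library without normalization. The 5 rows of each file that name no gene held 53.9% to 91.6% of its total and stayed out of library sizes and tests. Duplicated libraries were looked for with a chi-square test of counts, and none was found (smallest chi-square per degree of freedom within a cell type 10.8). The replicates are biological by the study's methods.

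Genes were tested with edgeR 4.0.16 in R 4.3.3 (filterByExpr, TMM, quasi-likelihood F test with the bias-adjusted deviance of version 4) in 1 fit of the 22 libraries with cell type as the only term, which lets EEC share the spread of the others. Calls used the study's thresholds, an adjusted p below 0.01 with a mean over all libraries of 50 normalized counts or more. Tests are two-sided, and the script was tested on simulated data. Fold changes of AbsPro, SecPDG, Tuft, Ent and EEC were taken relative to Stem, and 4 further contrasts between related cell types were made. Exon lengths come from GENCODE vM21 for the 23334 genes that matched, and tables and plots used pandas 2.3.3, numpy 2.4.6 and matplotlib 3.10.9 in Python 3.11.15. DESeq2 1.42.0, other scalings, filters and thresholds, thinned counts, subtracted background, libraries of 1 form of file name and each library left out were alternatives, and the edgeR test of earlier versions was added after the data were seen.

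The members and gene lists were chosen with earlier results of these data known. The genes named are the members, for each member with a mean of at least 50 the 3 genes of highest correlation, and for each pathway list the called gene with the largest increase and decrease versus Stem, with further genes of the ligand and shedding lists named after their values were seen. The tables of splicing and polyadenylation made by the authors hold their own comparisons and unnamed libraries and were not used here.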

Additional observations from a re-analysis of the deposited data

Results flagged for a closer look

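Within cell types of 4 or 5 libraries, the distance of the highest or lowest library from the rest was tested for each member in 27 cases, and 1 stood apart at the 95% level, where chance gives about 1 in 20. It was Erbb4 in SecPDG 2, at 23.6 normalized counts (19 reads) while the other 3 SecPDG libraries were at 0. With the others tied at 0, any read in SecPDG 2 would have been flagged, so the 95% level does not hold for this case. SecPDG 2 also had the highest estimated background of the SecPDG libraries for this gene, 7.58 normalized counts.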

How the results depend on the processing

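The 12 fold changes of members called kept their direction in all 138 alternatives and in all 264 fits without a single library, while 14 and 26 of these values lost their call. Erbb2 in Tuft versus Stem and Errfi1, Erbb2 and Hbegf in Ent versus Tuft kept their calls in all fits made. The same held for Errfi1 in Ent versus Stem. Libraries of 1 form of file name alone could not be fitted for Tuft or SecPDG against Stem, AbsPro or Ent. Areg in Ent versus Stem and versus Tuft lost its call only with counts thinned to the smallest library (4122122 reads), where the same minimum mean is a stricter filter, and the other calls lost were those of Areg in EEC versus Stem, AbsPro versus SecPDG and Ent versus AbsPro, of Hbegf in Ent versus Stem and of Errfi1 in EEC versus Stem.

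The number of members called moved as follows, and the cause was not tested. Across the 6 cell types 4 became 8 with DESeq2's likelihood ratio test or library totals and 7 with DESeq2 size factors. AbsPro versus Stem went from 0 to 1 with size factors and at an adjusted p under 0.05. SecPDG versus Stem went from 0 to 1 with DESeq2's Wald test, size factors, library totals, an adjusted p under 0.05 and the pair fitted alone, and Tuft versus Stem from 1 to 2 at an adjusted p under 0.05. Ent versus Stem went from 3 to 6 with size factors or library totals and to 5 with the pair alone, and Ent versus Tuft from 4 to 7 with library totals. EEC versus Stem went from 2 to 4 at an adjusted p under 0.05 and to 1 with the pair alone or the edgeR test of earlier versions, an alternative chosen after seeing the data. AbsPro versus SecPDG went from 1 to 2 with the Wald test (Erbb2 and Errfi1, not Areg), size factors or the pair alone, to 3 with library totals or an adjusted p under 0.05, and to 0 with thinned counts or the earlier edgeR test. Ent versus AbsPro went from 1 to 3 with the Wald test (without Areg), no minimum mean or background taken off, to 5 with size factors, library totals or the pair alone, to 2 at an adjusted p under 0.05, to 4 with libraries of the same form of file name, and to 0 with thinned counts or the earlier edgeR test.

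Without a single library the counts ranged from 4 to 6 across cell types, 0 to 1 in AbsPro and in SecPDG versus Stem, 1 to 2 in Tuft, 2 to 3 in Ent and 1 to 3 in EEC versus Stem, 0 to 3 in AbsPro versus SecPDG and 0 to 2 in Ent versus AbsPro. Without EEC 2 the 2 called in EEC versus Stem were Erbb2 and Erbb3 in place of Areg and Errfi1. The counts stayed at 0 in Tuft versus SecPDG and 4 in Ent versus Tuft.

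With a replicate block, the counts became 1 in AbsPro versus Stem and in SecPDG versus Stem, 2 in AbsPro versus SecPDG and 0 in Ent versus AbsPro, and the others were as without it. The labels tie the numbers to no shared animal or day, 16 of 44 pairs of the same number had a correlation of deviations over 0.1, and 6 of 22 libraries were nearest to a library of their own number, so they were not taken to pair the samples.

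The shallowest library, EEC 1, had 4122122 reads on genes, and at 0 reads a level under 3 counts could not be told from none.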
